A study of Homo sapiens with 92 samples.

Results

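The genes described here are very long: each spans more than 500 kb from start to end in the deposited gene models. Members were chosen by a rule of length and name that uses no measured value, although the rule was set with earlier results of these data known. Of the 48888 genes kept, 364 passed the length limit. Of these, 43 were left out because their name holds a dot or a hyphen, and 58 because their name falls under a fixed list of channels, cadherins, guidance receptors, collagens, zinc finger genes and single genes. The remaining 263 genes are 0.538% of the genes and 12.5% of the summed gene length. Their median length was 703.6 kb, the shortest lay just over the limit and the longest, CNTNAP2, had 2305 kb. Of the members, 51 exceeded 1 Mb and 6 exceeded 2 Mb.

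The study asked what NIPBL does when transcription restarts after mitosis, and new RNA was measured by SLAM-seq, in which 4-thiouridine (4sU) taken up by cells is read as T-to-C conversions after alkylation. A read with such a conversion (a converted read) is taken as RNA made during the label, although false conversions can give such reads too. In every group, treated and control alike, NIPBL carried the genotype mGreenLantern-P2A-FKBP12(F36V)-NIPBL, a degron tag that lets the degrader dTAGV-1 remove the fused protein. Controls received DMSO, the solvent, and carried the same tag. Most groups came from the single clone NIPBL-D7 of hTERT RPE-1, human retinal pigment epithelium made immortal with telomerase, and all libraries hold total RNA freed of ribosomal RNA, labelled with 100 µM 4sU.

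In the mitosis series, cells were held with 2 mM thymidine given as a double block and then with nocodazole at 20 ng/ml, received drug or DMSO for 120 min, were shaken off and were released. With a 15 min label, this series had 3 DMSO libraries and 4 dTAGV-1 libraries at 0 min after release. It had 3 of either kind at 30 min, 4 of either at 60 and at 90 min, and 2 of either at 4, 6 or 8 h. At 120 min 4 had DMSO and 3 had dTAGV-1. A 120 min label gave 3 more of either kind. In a second series, here called the release series, synchronised cells, also listed with nocodazole at 20 ng/ml, received DMSO or dTAGV-1. The drug was given for 30, 60, 90 or 120 min with a 15 min label, or with a 120 min label, with 3 libraries per group. Cardiomyocytes and neurons, which the labels call post-mitotic, received DMSO or dTAGV-1 for 4 h with a 120 min label, with 2 libraries per group. Their titles and protocols name the human induced pluripotent line WTC11, whereas their cell line field names hTERT RPE-1, so these groups are called by the titles. The labels do not say that replicates came from separate cultures, and p-values measure the spread between these libraries only.

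NIPBL is the factor that loads cohesin on chromatin and drives it to extrude DNA loops, and cohesin loops bring distant regulatory DNA and promoters near each other. A very long gene is mostly intron, and an RNA polymerase that starts at its promoter needs far longer to reach its end than in a short gene. Transcription stops for most genes in mitosis and starts anew after it. Many of the longest human genes encode adhesion molecules, receptors and scaffolds of nerve cells, and several lie at common fragile sites, where chromosomes break under replication stress.

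Library depth ran from 10.7 to 114 M reads in all (M for 1e6), and from 0.419 to 35.4 M converted reads. Of the members, 231 had converted reads in every library. No library without 4sU was used here, so the rate of false conversions was not measured. In 4 RPE-1 libraries silent genes carried reads above those in the other 80. These were DMSO at 0 min replicate 4, dTAGV-1 at 0 min replicate 4, dTAGV-1 at 120 min replicate 4 (all of the mitosis series) and dTAGV-1 at 30 min of the release series, replicate 3. Reads scaled to library size are given as CPM (counts per 1e6 counts of the library). The 10th percentile of the members' all-read CPM per Mb of gene was 20.1 to 46.8 in them and 0.151 to 11.9 in the others. Their reads in 758 olfactory receptor genes, which these cells should not use, summed to 41.1 to 110 CPM. The release series also stood apart from the early times of the mitosis series. Converted CPM of the mitotic genes CDK1 and TOP2A ran from 0 to 11.8 and from 10.5 to 69.7 in its 24 short-label libraries, against 250 to 458 and 790 to 1299 at 30 min after mitosis. At 4 to 8 h after mitosis these values were 4.09 to 27.2 and 17.9 to 97.6. The time since mitosis in the release series is therefore taken as not given, and its times are times of drug. Of the cardiomyocyte markers, 9 of 10 exceeded 1 CPM in the cardiomyocytes, MYL2 being the exception, and of the neuron markers 9 of 10 did in the neurons, TUBB3 being the exception. Over 6 RPE-1 markers, all-read CPM in DMSO summed to 722 to 779 in RPE-1 at 4 h and to 969 to 1086 in the cardiomyocytes. That list therefore did not set the cardiomyocytes apart from RPE-1. In the neurons it summed to 146, and all 6 were at 1 or more there and in the cardiomyocytes. RNA of dividing cells was present in both: mean converted CPM of CDK1 and TOP2A in DMSO was 47.7 and 66.0 in the cardiomyocytes and 77.6 and 130 in the neurons (n = 2 each, 120 min label). All-read CPM in DMSO summed over 6 pluripotency markers ran from 126 to 145 and from 227 to 237, with only 2 of them at 1 or more in either. POU5F1, NANOG and PRDM14 were below 1 in both, DPPA4 in the cardiomyocytes and TDGF1 in the neurons. The DMSO sum over 7 markers of neural progenitors and glia (of 8 listed) ran from 316 to 385 and from 646 to 713. HES5, GFAP, S100B, OLIG1 and FABP7 were below 1 in the cardiomyocytes, and GFAP, AQP4 and OLIG1 in the neurons.

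Because most members overlap other genes (245 of 263 overlap a listed gene, 17 of them on the same strand) and the strand used in counting was not given, reads of a member and of genes within it cannot be told apart. The results turn on a few members whose hg38 positions are as follows. NTM, a neural adhesion protein anchored in the membrane by a lipid, lies at chr11:131370478-132336822 on the plus strand. THSD4, which assists fibrillin assembly in the matrix, lies at chr15:71096952-71783383 on the plus strand. NCKAP5 lies at chr2:132671799-133568463, PDE1C, a calmodulin-dependent cyclic nucleotide phosphodiesterase, at chr7:31751179-32299329, and SLC8A1, the plasma membrane sodium-calcium exchanger, at chr2:40097270-40611053, all on the minus strand. MCTP1, a membrane protein with C2 domains, lies at chr5:94703741-95284575 on the minus strand, and KIAA1217 at chr10:23694746-24547848 on the plus strand.

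The promoters of 6 of these members are shown as examples, because 4 of them (NTM, THSD4, NCKAP5 and PDE1C) fell in at least 4 of the 7 drug comparisons described below, and KIAA1217 and MCTP1 rose in more than 1. SLC8A1, MAST4 and PTPRG meet the same counts and are not shown, so the 6 windows are no basis for a contrast between genes that fell and rose. The sequences are from RefSeq (GRCh38.p14) and run from 250 bases before to 50 bases after the start, 5′ to 3′ on the gene's strand. Capitals mark matches to 4 motifs searched on both strands: TATAAA as the TATA box, CCAAT as the binding motif of NF-Y, TGANTCA as that of AP-1, and CATTCC as that of TEAD factors.
NTM: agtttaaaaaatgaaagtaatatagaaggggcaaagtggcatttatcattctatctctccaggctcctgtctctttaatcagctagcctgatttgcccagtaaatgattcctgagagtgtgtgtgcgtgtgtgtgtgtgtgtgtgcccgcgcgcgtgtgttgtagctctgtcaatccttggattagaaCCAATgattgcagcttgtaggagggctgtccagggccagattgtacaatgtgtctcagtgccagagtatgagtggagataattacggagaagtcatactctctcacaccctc
THSD4: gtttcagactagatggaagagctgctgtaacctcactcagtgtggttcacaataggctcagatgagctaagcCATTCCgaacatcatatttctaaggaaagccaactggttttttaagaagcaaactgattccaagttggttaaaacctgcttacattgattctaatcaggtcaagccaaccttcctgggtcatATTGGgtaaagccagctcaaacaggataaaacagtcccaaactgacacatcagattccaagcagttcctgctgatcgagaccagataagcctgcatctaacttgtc
NCKAP5: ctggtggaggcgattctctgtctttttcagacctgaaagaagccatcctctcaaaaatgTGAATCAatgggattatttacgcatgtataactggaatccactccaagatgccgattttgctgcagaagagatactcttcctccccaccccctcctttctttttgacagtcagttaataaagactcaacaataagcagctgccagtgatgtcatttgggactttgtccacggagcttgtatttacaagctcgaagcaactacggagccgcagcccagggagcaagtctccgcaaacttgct
PDE1C: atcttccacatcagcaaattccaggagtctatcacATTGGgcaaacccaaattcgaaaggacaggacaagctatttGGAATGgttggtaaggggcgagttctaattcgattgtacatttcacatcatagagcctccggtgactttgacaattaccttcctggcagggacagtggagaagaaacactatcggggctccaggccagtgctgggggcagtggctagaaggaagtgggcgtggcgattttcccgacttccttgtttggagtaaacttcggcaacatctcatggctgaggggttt
KIAA1217: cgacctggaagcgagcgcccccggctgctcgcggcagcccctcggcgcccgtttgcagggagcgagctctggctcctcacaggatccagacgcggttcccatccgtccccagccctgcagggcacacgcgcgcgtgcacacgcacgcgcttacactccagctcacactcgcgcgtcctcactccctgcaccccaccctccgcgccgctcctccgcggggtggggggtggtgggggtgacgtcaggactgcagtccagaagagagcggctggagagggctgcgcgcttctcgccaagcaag
MCTP1: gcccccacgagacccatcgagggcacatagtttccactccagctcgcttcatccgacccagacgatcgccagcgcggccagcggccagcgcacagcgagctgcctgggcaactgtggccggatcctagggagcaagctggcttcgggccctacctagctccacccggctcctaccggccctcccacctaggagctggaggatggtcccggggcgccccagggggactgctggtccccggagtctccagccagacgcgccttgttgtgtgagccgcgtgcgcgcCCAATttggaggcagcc
The NTM window (chr11:131370365-131370664) had 46.0% GC and 6 CpG, and its RefSeq start lay 137 bases from the gene's listed 5′ end. The THSD4 window (chr15:71096644-71096943) had 43.0% GC and 2 CpG, and held 1 CCAAT and 1 CATTCC match. Those of NCKAP5 (chr2:133568414-133568713) and PDE1C (chr7:32299279-32299578) had 46.3% and 49.3% GC. KIAA1217 (chr10:23694477-23694776) had 71.3% GC and 33 CpG, and MCTP1 (chr5:95285045-95285344) 69.0% and 24, with the MCTP1 start 519 bases from the listed end. The median GC over 35116 promoters was 58.7%. Among the 154 members with a promoter within 1000 bases of their listed end the median was 66.0%. By their response at 4 to 8 h, it was 68.3% for 27 that fell, 69.3% for 23 that rose and 64.8% for 94 that did not pass the test. TATAAA was in 11.5% of all promoters and 5.19% of the members', CCAAT in 34.6% and 32.5%, TGANTCA in 7.71% and 5.84%, and CATTCC in 14.0% and 10.4%. A match is a string of letters and not a measured binding site.

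Few very long genes were made at a high level in RPE-1 cells, and different members led in each cell type. A member was counted as active in a cell type at 50 or more all-read CPM per Mb. By this measure 108 members (41.1%) were active in RPE-1, 167 (63.5%) in cardiomyocytes and 199 (75.7%) in neurons. All 3 cell types shared 88 of them, 63 were active in cardiomyocytes and neurons but not in RPE-1, 36 in neurons alone, 11 in cardiomyocytes alone, 3 in RPE-1 alone, and 45 in none. The 10th percentile of this measure was 21.8 to 24.6 in the neuron libraries and 10.4 to 13.6 in those of cardiomyocytes. In RPE-1 it was 0.151 to 11.9 outside the 4 high-floor libraries. How far a higher floor raised the counts of active members was not tested. Levels are given as converted CPM per kb of gene, in DMSO. In RPE-1 at 4 to 8 h (mean ± SD, n = 6) SPOCK1, a testican proteoglycan, stood at 6.98 ± 0.86. MIR100HG, a long non-coding RNA that hosts a microRNA cluster, stood at 6.46 ± 0.30. DLC1, a GTPase-activating protein, followed at 4.41 ± 0.45. PSD3, an Arf exchange factor, stood at 3.31 ± 0.34, the transcription factor FOXP1 at 2.99 ± 0.37 and DPYD, the first enzyme of pyrimidine breakdown, at 2.84 ± 0.50. SPOCK1 and MIR100HG, and the last 3 genes among themselves, differed by less than their spread. The median member was at 0.0242, with 10% below 0.00257 and 10% above 0.711.

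In cardiomyocytes (n = 2) SLC8A1 led at 8.13 ± 0.22, above the kinesin gene KIF26B at 2.70 ± 0.03 and the focal adhesion gene LPP at 1.90 ± 0.33. In neurons (n = 2) the latrophilin genes ADGRL3 and ADGRL2 led at 2.51 ± 0.04 and 2.14 ± 0.06, followed by the phosphodiesterase gene PDE10A at 1.61 ± 0.13. In DMSO the 10 highest members held 39.0% of the members' converted CPM in RPE-1 at 4 to 8 h, 28.4% in cardiomyocytes and 19.1% in neurons. SPOCK1 stood at 0.0506 in cardiomyocytes and 0.0356 in neurons, far below its RPE-1 level, which was measured with the shorter label. NTM stood at 0.814, 0.019 and 0.151 in RPE-1, cardiomyocytes and neurons, and PDE1C at 0.817, 0.020 and 0.051. PTPRG, a receptor tyrosine phosphatase, stood at 0.255, 0.593 and 0.598. The 3 longest members were low in RPE-1. CNTNAP2, an adhesion gene, stood at 0.00383 in RPE-1, 0.0277 in cardiomyocytes and 0.228 in neurons, PTPRD at 0.00220, 0.487 and 0.313, and the dystrophin gene DMD at 0.0320, 0.0699 and 0.0629.

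The members' share of all converted reads was low in the first 120 min after mitosis and higher later. In DMSO the share at 0 min was 3.00% ± 0.39 (SD, n = 3), that at 30 min 2.74% ± 0.15 (n = 3), that at 60 min 1.89% ± 0.04 (n = 4), that at 90 min 2.25% ± 0.23 (n = 4) and that at 120 min 2.29% ± 0.70 (n = 4). The means of 2 libraries each were 5.63%, 5.58% and 5.45% at 4, 6 and 8 h. No test of drug against DMSO passed in 16 pairs of groups (exact two-sided permutation tests, all Benjamini-Hochberg adjusted p of at least 0.933). The smallest unadjusted p that pairs of 2, 3 and 4 libraries allow is 0.333, 0.1 and 0.0286. After adjustment over the 16 pairs no pair could pass, so these tests could not decide whether the share changed. At 8 h the libraries did not overlap, at 5.73% to 6.13% in dTAGV-1 and 5.41% to 5.49% in DMSO. At 120 min the dTAGV-1 libraries had 3.10% ± 0.46 (n = 3, exact permutation p = 0.171). In neurons the share was 6.14% ± 0.22 in DMSO and 5.43% ± 0.40 in dTAGV-1 (n = 2 each), without overlap, and in cardiomyocytes 4.93% ± 0.06 and 4.92% ± 0.31. The members' share of all reads in neurons did overlap, at 4.57% and 4.30% in DMSO and 4.43% and 3.90% in dTAGV-1. In DMSO the converted percent of member reads ran from 2.47 to 3.70 at 0 min, from 4.26 to 6.38 at 120 min and from 8.94 to 14.7 at 4 to 8 h. Over all genes it rose as well, from 2.44 to 3.31 at 0 min, to 3.05 to 4.12 at 120 min and to 5.80 to 9.05 at 4 to 8 h.

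**Figure D1:**
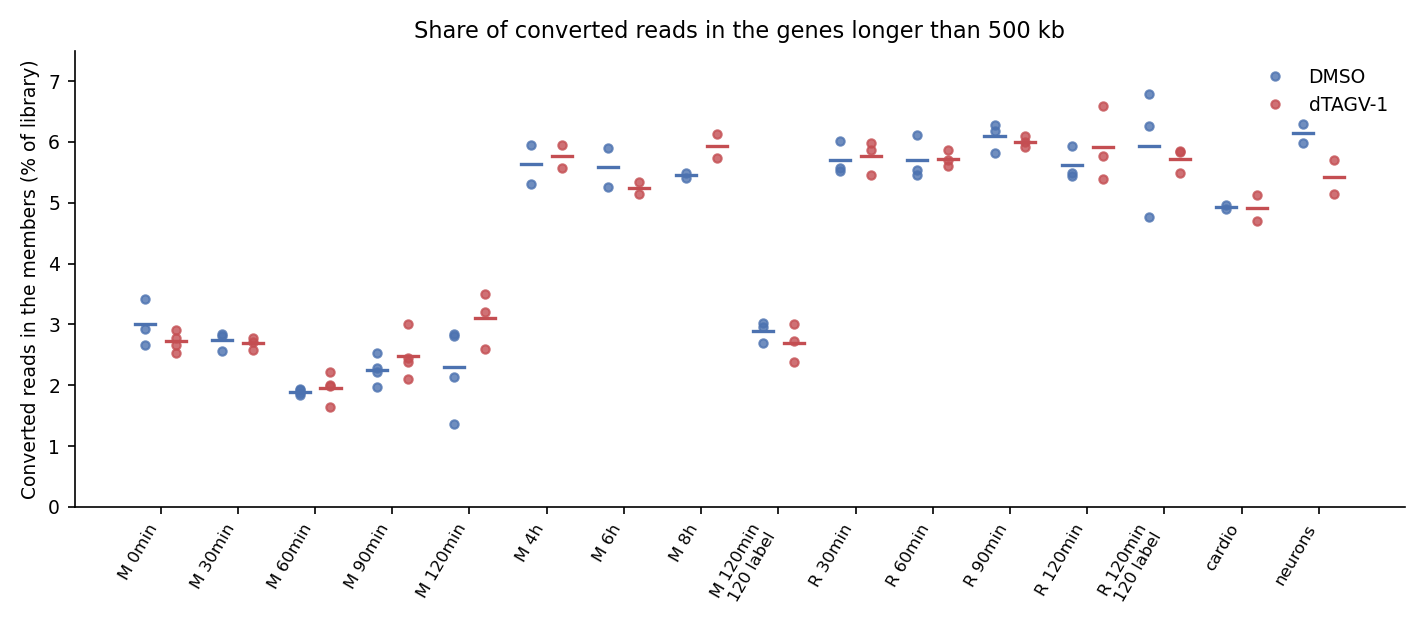
Share of all converted reads that fell in the 263 members (percent, vertical axis) by group, with points for libraries and bars for group means in DMSO and dTAGV-1, M for the mitosis series and R for the release series. The DMSO means lie between 1.89% and 3.00% up to 120 min after mitosis and above 5% from 4 h on.

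Converted reads of the members lagged behind those of shorter genes after mitosis in DMSO. Each gene's converted CPM was set against its own mean in DMSO at 4 to 8 h, over genes with at least 10 CPM there, among them 154 members. The median member stood at 54.8% of its later level at 0 min, 47.6% at 30 min, 33.3% at 60 min, 36.0% at 90 min and 35.0% at 120 min. At 4, 6 and 8 h it stood at 95.9%, 95.8% and 107%. These values lie near 100% by construction, since the same libraries set the later level. Genes were also kept by their level in those libraries, which favours genes that were high there. At 60 min the library medians ran from 30.2% to 33.6%, all below the range at 0 min, 46.4% to 64.3%. At 120 min they ran from 23.9% to 40.5%. At 60 min genes up to 10 kb stood at 163%, those of 10 to 30 kb at 165%, of 30 to 100 kb at 127%, of 100 to 250 kb at 74.5% and of 250 to 500 kb at 44.0%. At 120 min these classes stood at 190%, 130%, 96.5%, 68.9% and 53.5%. These values are shares of a library, so a rise of short genes lowers the rest. At 0 min in DMSO the converted percent of member reads was 2.52, 3.70 and 2.47 in replicates 2, 3 and 4. Over all genes it was 2.57, 3.31 and 2.44. How much of the early values came from false conversions in older RNA was not tested, so they are not a measure of new RNA alone.

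**Figure D2:**
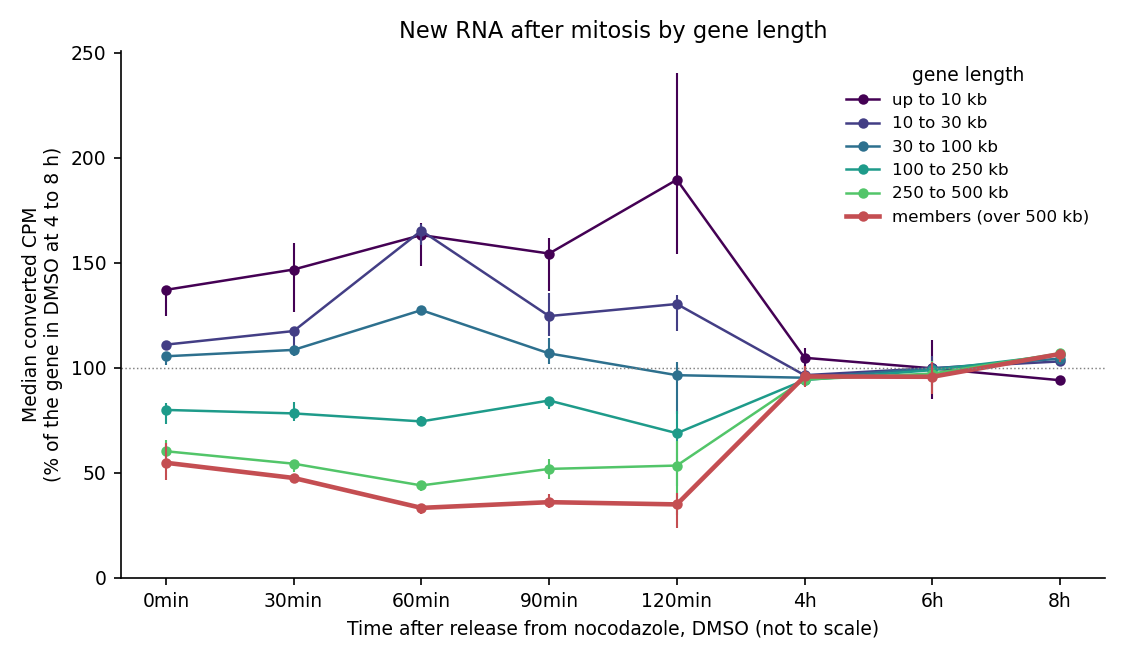
Converted CPM of genes in DMSO as percent of their own mean at 4 to 8 h (vertical axis) against time after mitosis, for classes of gene length. Points are medians over genes of the group mean and vertical lines run from the lowest to the highest library median. The members are lowest of the classes at 60 min, with 33.3%. Their 95.9% at 4 h lies near 100% by construction, since the libraries of 4 to 8 h set the later level.

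Single members did not all follow the median. Converted CPM of NAV2, a neuron navigator gene that acts on the cytoskeleton, fell from a level far above its later one. In DMSO at 0 min it was 5930, 4295 and 5326. Libraries of 60 min had 2560, 2443, 2105 and 2600, those of 120 min had 1228, 1301, 521 and 1359, and the libraries of 0 and 120 min did not overlap. NAV2 was thus at 347.5% of its later level at 0 min and at 70.2% at 120 min. MIR100HG did the reverse, from 455, 390 and 468 at 0 min to 2698, 4481, 2214 and 4499 at 120 min, again without overlap. It stood at 12.8% at 0 min, 22.7% at 60 min, 82.8% at 90 min and 96.2% at 120 min. CREB5, a leucine zipper transcription factor, rose from 44.8% at 0 min to 144.8% at 30 min and 230.8% at 90 min. RUNX1, a transcription factor of blood and other lineages, reached 53.9% at 60 min and 75.7% at 90 min. IMMP2L, a mitochondrial peptidase gene, went from 39.1% at 0 min to 16.7% at 60 min and 10.3% at 120 min, the lowest of the 154 members. THSD4 stood at 29.0%, 15.7% and 12.2% at these times, NTM at 43.2%, 22.9% and 29.4%, and UTRN, the utrophin gene, at 113%, 67.7% and 53.0%. Members above 100% numbered 27 at 30 min and 13 at each of 60, 90 and 120 min.

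Tested against 0 min in DMSO, the members' converted reads fell far more often than those of other genes at 60, 90 and 120 min. The part of false conversions in the 0 min values was not tested. At 30 min no gene of 14204 passed the test, in edgeR's quasi-likelihood fit at an adjusted p of 0.05, so percent called was 0, and the median log2 change of the 262 members tested was -0.62 against 0.00 over all genes. At 60 min 35.9% of all genes changed, 13.9% lower and 22% higher. Of the members 189 fell, and 1, MIR100HG, rose. The median was -1.23 for members and 0.02 for all genes. At 90 min 24.2% changed (9.99% lower, 14.2% higher), with 93 members lower and 9 higher. At 120 min 27.8% changed (13.2% lower, 14.7% higher), with 103 lower and 9 higher. The members' medians at 90 and 120 min were -1.11 and -1.19. Of members active in RPE-1, 50 of 108 fell and 9 rose by 120 min, with a median of -0.49. Of the others 53 of 154 fell and 0 rose, with a median of -1.65. The fall grew with length: at 60 min the medians over the length classes ran 0.17, 0.43, 0.07, -0.40 and -0.96 up to 500 kb.

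The size of the fall depended on the scale. With libraries scaled on all reads, the median over all genes rose by 0.58, 0.48 and 0.36 at 60, 90 and 120 min. The members then lay 1.25, 1.13 and 1.25 below that median, and 41, 28 and 51 fell while 8, 18 and 11 rose. Against each member's own all reads the direction turned at 120 min: 0 fell and 63 rose. The members' all reads fell by a median of 1.73 on the log2 scale. Without the high-floor libraries 148 members fell and 1 rose at 60 min, and 79 fell and 8 rose at 120 min. Without replicate 4 of each group the count called at 120 min was 60 in place of 112, and without replicate 1 it was 67.

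By role, the falls at 120 min reached all lists. Members not active in RPE-1, which had the lower median above, were not set apart in these lists. In DMSO at 0 min, replicate 4 had a high floor, at 25.8 all-read CPM per Mb. How far silent members and this floor set the medians by list was not tested. Of fragile-site and genome maintenance genes 6 of 9 fell and 0 rose, with a median log2 change of -1.89, among them IMMP2L at -1.80 and the repair gene RAD51B at -1.73. Of synaptic adhesion genes 12 of 38 fell and 0 rose, with a median of -1.59, NLGN1, a neuroligin, at -2.26 ± 0.23 (SE). Of membrane trafficking genes 10 of 22 fell and 0 rose, of metabolic enzymes 8 of 16 and 0, of proteoglycan and matrix genes 8 of 17 and 0, of receptor tyrosine phosphatases 4 of 6 and 0, and of dystrophin complex genes 2 of 8 and 0. The list of polarity and cytoskeletal genes had 10 of 18 lower and 1 higher, and that of signalling genes 8 of 22 and 1. Transcription and RNA-binding factors held the most risers: 10 of 22 fell and 3 rose. The 9 risers were MIR100HG at 2.99 ± 0.31 (edgeR adjusted p = 5e-09), CREB5 at 2.17 ± 0.68, the zinc finger factor GLIS3 at 1.74, the kinase gene MAST4 at 1.41, the deacetylase gene HDAC9 at 1.37, HIVEP3 at 0.92, KIAA1217 at 0.85, DLC1 at 0.75 ± 0.20 and RUNX1 at 0.58. NAV2 fell by 2.23 ± 0.21 on the log2 scale (edgeR adjusted p = 8e-10).

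From 4 to 8 h in DMSO, 13.3% of all genes changed (6.72% lower, 6.6% higher) and 22 members fell while 25 rose, with a median of -0.07 against 0.00. CREB5, which had risen by 120 min, fell again: its libraries had 277 and 315 CPM at 4 h, then 150 and 149 (6 h) and finally 107 and 89.6 (8 h), a log2 change of -1.59 ± 0.14. RELN, the secreted guidance protein reelin, went from 292 and 345 to 110 and 99.0, a change of -1.61 ± 0.17. GLIS3 changed by -1.39 and RUNX1 by -1.14. The channel gene TRPM3 rose by 1.34, the fragile-site gene WWOX by 1.26, the RNA-binding gene RBMS3 by 1.26, the scaffold gene SHANK2 by 1.25 and CLSTN2, a calsyntenin, by 1.23. The balance rests on the scaling: with libraries scaled on all reads 5 members fell and 98 rose, and the median over all genes rose by 0.58. Relative to each gene's all reads 25 fell and 85 rose, and CREB5, GLIS3 and RUNX1 turned to 0.50, 0.51 and 0.53. Without either library of 8 h the count called was 23 or 24.

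Degrading NIPBL from mitosis on changed very few members in the first 120 min. At 0, 30 and 60 min 0% of 14204 genes passed the test, and no member did. At 90 min 0.366% of genes passed and no member. At 120 min 0.95% passed (0.62% lower, 0.331% higher), with 1 member lower and 2 higher of 262. The mean over 30 to 120 min had 1.27% of genes called (0.753% lower, 0.514% higher), with 2 members lower and 2 higher. The median member was higher in dTAGV-1 at 120 min, at 0.71 against 0.02 for all genes, but this rests on 1 library. Without the high-floor libraries, dTAGV-1 replicate 4 among them, the median was 0.07. The DMSO library of replicate 3 was also low in most members at this time, as NAV2 shows.

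All 3 members called at 120 min were called again at 4 to 8 h, in the same direction. MCTP1 had 335, 443, 148 and 402 CPM in DMSO and 587, 747 and 562 in dTAGV-1 at 120 min, without overlap, a log2 change of 0.91 ± 0.20 (edgeR adjusted p = 0.012). Its change was 0.07, 0.16, 0.42 and 0.63 at 0, 30, 60 and 90 min, and over 30 to 120 min 0.53 ± 0.10 (adjusted p = 0.0019 in edgeR). PTPRG had 50.7, 74.4, 23.3 and 71.7 CPM in DMSO and 88.0, 125 and 157 in dTAGV-1, without overlap, a change of 1.09 ± 0.23 (edgeR adjusted p = 0.0081). NCKAP5 had 77.0, 132, 38.3 and 147 CPM in DMSO and 33.1, 35.6 and 52.2 in dTAGV-1, a change of -1.35 ± 0.31 (edgeR adjusted p = 0.019). Its groups overlapped because of DMSO replicate 3. NTM had 236, 297, 163 and 278 against 151, 164 and 177, a change at 120 min of -0.59 ± 0.16 that missed the test (edgeR adjusted p = 0.084). Over 30 to 120 min NTM fell by 0.38 ± 0.08 (edgeR adjusted p = 0.0056) and NCKAP5 by 0.57 ± 0.15 (edgeR adjusted p = 0.04), and KIAA1217 rose by 0.51 ± 0.14 (edgeR adjusted p = 0.05). Without replicate 1, 2 or 4 of each group 1 member was called over 30 to 120 min. At single times 1 was called without replicate 1, 0 without replicate 2 or 4, and 5 without replicate 3.

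At 4 to 8 h after mitosis members changed in both directions, and more often than genes at large. Averaged over the 3 times, 19.8% of 14568 genes changed (10.7% lower, 9.07% higher). Of 246 members tested, 47 (19.1%) fell and 36 (14.6%) rose, and the median was 0.05 against 0.01. Relative to each gene's all reads, 1 member fell and 0 rose, and 0 were called at the single times. Of members active in RPE-1 38 of 108 fell and 24 rose, and of the others 9 and 12 of 138. The shares called rose with length from 5.18% lower and 3.58% higher in genes up to 10 kb to 18.5% and 15.3% in genes of 250 to 500 kb, which differed little from the members. The other 91 genes over 500 kb, left out by name, had 12.1% lower and 15.4% higher. Taken singly, the 4 h time had 5.4% of all genes changed (3.51% lower), with 23 members lower and 16 higher. The 6 h time had 7.09% (4.72% lower), with 35 and 13 members, and the 8 h time 8.13% (4.62% lower), with 20 and 28. The drug's effect at 8 h differed from that at 4 h in 0.57% of genes and in 0 of 246 members. Without DMSO replicate 1 of 4 h it differed in 4.

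The falls of 7 members are given in full. In DMSO the libraries of NTM had 814 and 841 CPM (4 h), 898 and 893 (6 h), and 743 and 632 (8 h). In dTAGV-1 they had 200 and 171, 161 and 134, and 157 and 136, so that no libraries overlapped. Its log2 change was -2.33 ± 0.08 (edgeR adjusted p = 2.7e-12). THSD4 had 413 to 574 CPM in DMSO and 96.6 to 159 in dTAGV-1, a change of -2.06 ± 0.09 (edgeR adjusted p = 4.8e-11). PDE1C had 386 to 536 against 86.2 to 176, a change of -1.94 ± 0.09 (edgeR adjusted p = 5.5e-11). NCKAP5 had 439 to 681 against 108 to 302, a change of -1.64 ± 0.10 (edgeR adjusted p = 3.6e-09). Its dTAGV-1 values fell with time from 302 and 206 at 4 h to 134 and 108 at 8 h. MARCH1, a membrane-bound ubiquitin ligase now called MARCHF1, had 93.6 to 209 against 29.3 to 89.6, without overlap, and changed by -1.52 ± 0.12. SLC8A1 had 140 to 283 against 49.9 to 94.4, and fell by 1.37 ± 0.09. RELN fell by 1.15 ± 0.10, with overlap across times, since it also fell with time in DMSO.

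The rises were smaller, the largest near 1 on the log2 scale. MCTP1 had 266 and 281, 313 and 304, and 318 and 286 CPM in DMSO and 518 and 457, 515 and 521, and 753 and 616 in dTAGV-1, without overlap, a change of 0.92 ± 0.07 (edgeR adjusted p = 7.4e-08). PTPRG had 145 to 237 against 258 to 507, without overlap, a change of 0.97 ± 0.08 (edgeR adjusted p = 1.3e-07). KIAA1217 had 54.3 to 76.2 against 105 to 154, without overlap, a change of 1.09 ± 0.10 (edgeR adjusted p = 2.3e-07). SLC9A9, an endosomal sodium-proton exchanger, rose by 1.26 ± 0.16 from a mean of 6.14 to 15.1 CPM, and ATP8A2, a lipid flippase, by 1.11 ± 0.11. CSMD3, a large transmembrane protein with CUB and sushi domains, rose by 1.02 ± 0.10 from a mean of 120 to 243 CPM, and NAV2 by 0.80 ± 0.11 from 1514 to 2635. All of these groups were free of overlap. The most abundant members moved less: SPOCK1 fell by 0.43 ± 0.08, DLC1 by 0.29 ± 0.08, FOXP1 by 0.29 ± 0.09 and DPYD by 0.68 ± 0.12, MIR100HG rose by 0.24 ± 0.08, and PSD3 changed by 0.01 (edgeR adjusted p = 0.96). The longest 2 members had no call, with CNTNAP2 at -0.02 ± 0.20 and PTPRD at -0.07 ± 0.20, while DMD fell by 1.06 ± 0.11.

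**Figure D3:**
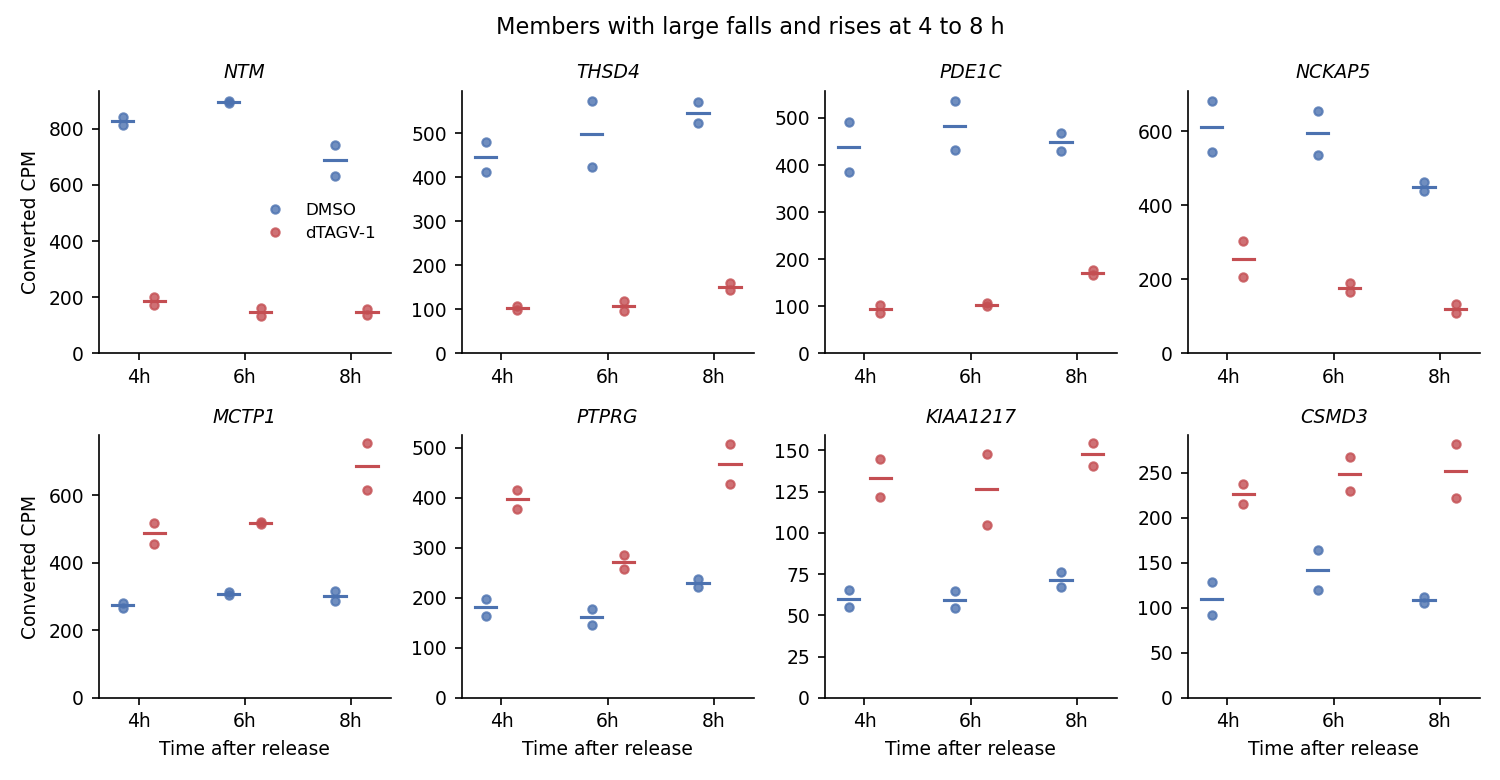
Converted CPM (vertical axes) of 8 members at 4, 6 and 8 h after mitosis, with a point for each library in DMSO and dTAGV-1. NTM lies between 632 and 898 in DMSO and between 134 and 200 in dTAGV-1, and MCTP1 between 266 and 318 in DMSO and between 457 and 753 in dTAGV-1.

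Of the 10 lists of roles, 8 held members called in both directions at 4 to 8 h. Synaptic adhesion genes had 7 of 37 lower, among them NTM, TENM3 at -0.83 ± 0.10 and CLSTN2 at -0.81 ± 0.09, and 5 higher, among them CSMD3 and KIRREL3 at 0.82 ± 0.09, with a median of 0.16. Of 6 receptor tyrosine phosphatases 0 fell and 2 rose, PTPRG and PTPRM, the latter by 0.26 ± 0.09. In the dystrophin complex list 2 of 8 fell, DMD and UTRN (-0.46 ± 0.09), and 1 rose, the nuclear envelope gene SYNE1 (0.46 ± 0.08). Polarity and cytoskeletal genes had 2 of 17 lower and 5 higher, signalling genes 5 of 19 lower and 5 higher, and trafficking genes 2 of 22 lower and 4 higher, with medians of 0.12, 0.12 and 0.01. Transcription factors had 5 of 21 lower, led by MECOM at -0.91 ± 0.08, and 3 higher, led by GLIS3 at 0.82 ± 0.09. Fragile-site genes had 3 of 9 lower (LRP1B at -0.74, IMMP2L at -0.52 ± 0.10 and RAD51B at -0.37) and 0 higher, with a median of -0.19. Proteoglycan and matrix genes had 4 of 16 lower and 1 higher, the sulfotransferase gene HS6ST3 at 1.09 ± 0.24, with a median of -0.11. Metabolic enzymes had 2 of 14 lower and 3 higher.

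With 120 min of 4sU from mitosis, the deepest falls were in NCKAP5, NTM and THSD4. Of 16569 genes 2.46% changed (2.05% lower, 0.41% higher), and of 246 members 7 fell and 0 rose, with a median of -0.09 against 0.02. In this comparison same-numbered libraries deviated together, and with the replicate number as a block 18 members fell and 0 rose. When replicate 2 of each group was left out, 4 fell. NCKAP5 had 117, 110 and 86.2 CPM in DMSO and 19.1, 18.2 and 26.7 in dTAGV-1, a log2 change of -2.30 ± 0.24 (edgeR adjusted p = 7.8e-05). NTM had 365, 360 and 297 against 107, 110 and 79.8, a change of -1.78 ± 0.18 (edgeR adjusted p = 7.8e-05). THSD4 had 69.8, 68.9 and 60.9 against 22.1, 18.5 and 20.7, a change of -1.70 ± 0.22 (edgeR adjusted p = 3.8e-04). PDE1C had 60.4, 57.8 and 55.3 against 28.7, 24.7 and 17.5, a change of -1.28 ± 0.21 (edgeR adjusted p = 0.0031). HIVEP3 fell by 1.49 ± 0.21, SLC8A1 by 1.19 ± 0.29 and PSD3 by 0.93 ± 0.23. None of the 7 overlapped between groups. The genes that rose with the short label were not called here: PTPRG was at 0.47 (edgeR adjusted p = 0.19) and MCTP1 at 0.34 (edgeR adjusted p = 0.56).

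In the release series falls in a few members grew with the time of drug. At 30 min 0% of 13925 genes passed the test, at 60 min 0.0934% (0.0862% lower), at 90 min 0.632% (0.603% lower) and at 120 min 1.39% (1.2% lower, 0.187% higher). No member passed at 30, 60 or 90 min, and at 120 min 6 of 261 fell and 1 rose. Same-numbered libraries deviated together at 120 min, and with the replicate number as a block 7 fell and 2 rose. NTM had 867, 779 and 715 CPM in DMSO and 798, 833 and 878 in dTAGV-1 at 30 min, which overlapped. At 120 min it had 844, 964 and 835 against 455, 470 and 415, without overlap. Its log2 change was 0.09, -0.15, -0.53 and -0.98 at the 4 times (± 0.13 and edgeR adjusted p = 4.7e-05 at 120 min). PDE1C changed by -0.13, -0.37, -0.63 and -1.03, with 360, 451 and 444 CPM against 164, 201 and 247 at 120 min (± 0.15, edgeR adjusted p = 2.2e-04). SLC8A1 changed by -0.04, -0.38, -0.65 and -0.75, with 176, 163 and 182 against 89.1, 95.0 and 123 at 120 min (edgeR adjusted p = 0.017). DMD had 87.1, 80.9 and 78.8 against 70.2, 46.9 and 38.7 at 120 min (edgeR adjusted p = 0.041), and THSD4 320, 385 and 375 against 241, 245 and 300 (edgeR adjusted p = 0.049). HIVEP3 changed by -0.83 ± 0.20. MAST4 rose by 0.59 ± 0.14, from 478, 477 and 589 to 662, 743 and 910. None of these 7 members overlapped at 120 min. NCKAP5 changed by -0.28 at 120 min and was not called. Over single times 3 members were called without replicate 1, 0 without replicate 2 and 3 without replicate 3.

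**Figure D4:**
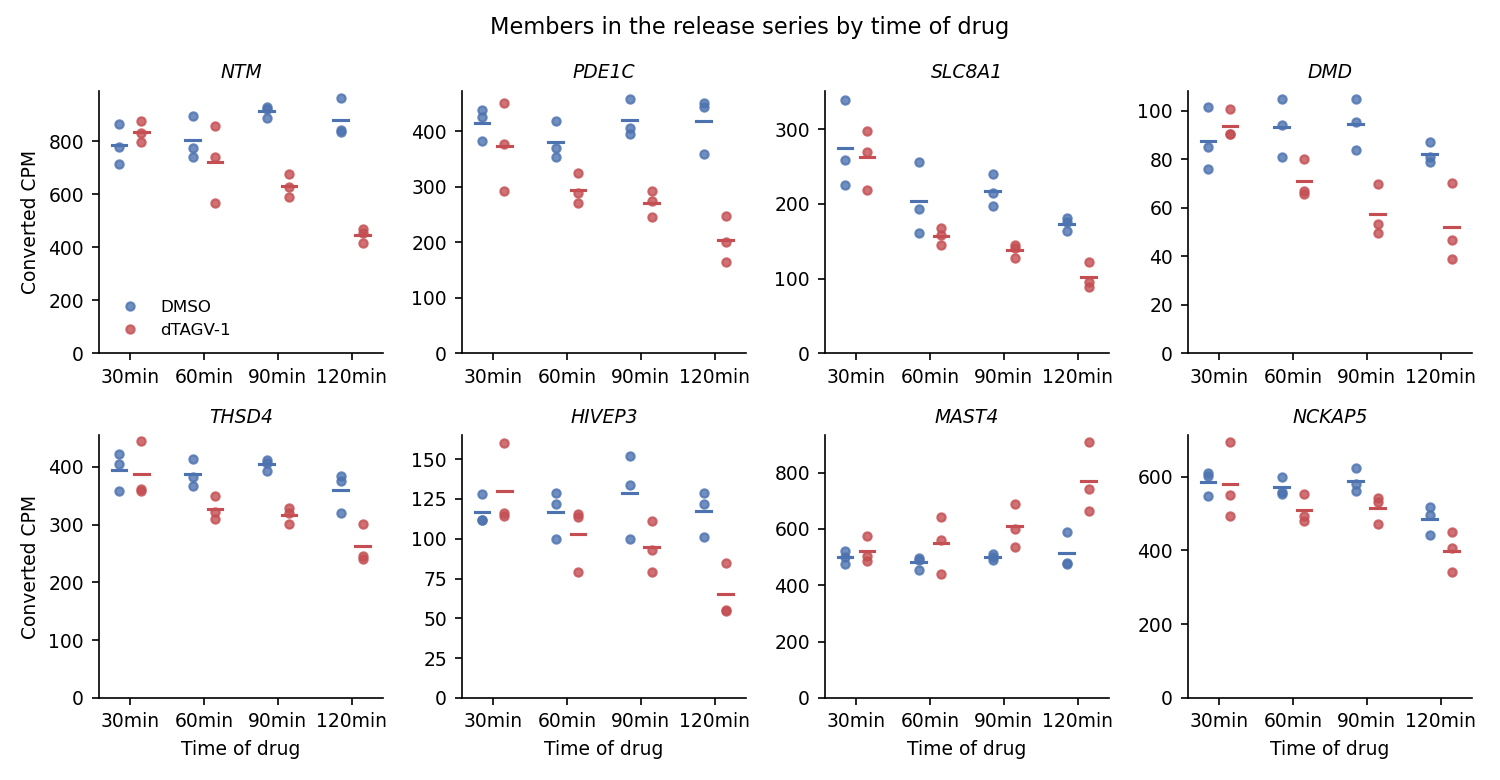
Converted CPM (vertical axes) of 8 members in the release series at 30, 60, 90 and 120 min of drug, with a point for each library in DMSO and dTAGV-1. At 120 min NTM lies between 835 and 964 in DMSO and between 415 and 470 in dTAGV-1.

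Over the 4 times of the release series, 2.28% of genes changed (1.81% lower, 0.467% higher), and 7 of 261 members fell and 1 rose, with a median of -0.03 against 0.00. PDE1C changed by -0.54 ± 0.08 (edgeR adjusted p = 7.5e-05), SLC8A1 by -0.46 ± 0.08, DMD by -0.44 ± 0.09 and NTM by -0.40 ± 0.06. MECOM (-0.31), PRKCA (-0.27) and THSD4 (-0.27 ± 0.06) were the other falls and MAST4 (0.28 ± 0.07) the rise. These calls were fragile: 3, 1 and 4 members were called without replicate 1, 2 and 3, 5 without the high-floor library, and 0 with libraries scaled on all reads. The 120 min label gave 0.718% of genes (0.646% lower, 0.0724% higher) and 2 members lower, with 6 lower under the replicate block, and 0 without any 1 of the replicates. NTM had 844, 1263 and 1205 against 521, 586 and 511 (-1.03 ± 0.18, edgeR adjusted p = 0.014), and PDE1C 316, 541 and 496 against 194, 240 and 226 (-1.03 ± 0.20, edgeR adjusted p = 0.024). Tested directly, the drug effect over 30 to 120 min differed between the mitosis and release series in 0.0883% of genes and in 0 of 262 members. In the mitosis series the drug had also been given for 120 min before release, so equal times are unlike lengths of drug. With few members called in either series, the lack of calls does not show that the effects were alike.

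In cardiomyocytes after 4 h of drug, 4.83% of 18643 genes changed (3.65% lower, 1.18% higher). Of 262 members 38 fell and 9 rose, with a median of -0.05 against 0.01, and 26 of the 167 active members fell and all 9 that rose were active. The share lower rose with length, from 1.98% up to 10 kb to 9.95% at 250 to 500 kb and 14.5% in the members, with 14.1% in the other genes over 500 kb. LRRC7, a scaffold of the postsynaptic density, had 67.7 and 116 CPM in DMSO and 32.0 and 9.14 in dTAGV-1, a log2 change of -2.16 ± 0.38 (edgeR adjusted p = 0.0075). The receptor tyrosine kinase gene ALK had 33.1 and 16.3 against 4.87 and 7.66, a change of -1.98 ± 0.33 (edgeR adjusted p = 0.005). ENOX1 had 203 and 143 against 56.0 and 56.7, a change of -1.62 ± 0.15 (edgeR adjusted p = 1.2e-04). MIR100HG had 355 and 189 against 100 and 125, a change of -1.27 ± 0.22. None of the 4 overlapped between groups, and replicates of a group lay far apart in LRRC7 and ALK. SLC8A1, the member with the highest level here, had 4266 and 4454 against 4941 and 5583, a difference of 0.27 ± 0.09 that missed the test (edgeR adjusted p = 0.12).

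By role, 5 of 38 synaptic adhesion genes fell in cardiomyocytes, among them OPCML (-1.25 ± 0.21) and CLSTN2 (-1.22 ± 0.23), and 0 rose. Transcription and RNA-binding factors had 6 of 22 lower and 0 higher, with a median of -0.21: RBMS3 at -0.97, GLIS3 at -0.94, SOX6 at -0.75, MECOM at -0.64 and FOXP2 at -0.48, and CELF2. The risers included PTPRG, with 455 and 456 CPM in DMSO and 618 and 640 in dTAGV-1 (0.47 ± 0.08, edgeR adjusted p = 0.0073) and the laminin gene LAMA2 (0.40). Markers of other cell types also differed between the drug groups. All-read CPM summed over 8 fibroblast and smooth muscle markers ran from 1126 to 1278 in DMSO and from 819 to 952 in dTAGV-1. Over endothelial markers it ran from 171 to 185 and from 107 to 138, and over neuron markers from 101 to 140 and from 77.0 to 92.9. Over neural progenitor and glia markers it ran from 316 to 385 and from 284 to 300, and over pluripotency markers, which were higher in dTAGV-1, from 126 to 145 and from 155 to 163. Their part in these results was not tested. With the replicate number as a block 19 members fell and 1 rose. The count called was 31 without DMSO replicate 1 or either neuron DMSO library, and 72 without dTAGV-1 replicate 1. In bulk RNA, fewer cells of a type and less RNA per cell cannot be told apart.

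In neurons after 4 h of drug the calls among members went one way. Of all genes 2.24% changed (1.66% lower, 0.574% higher), and 45 of 262 members fell and 0 rose. The median was -0.20 against 0.00, and 198 members were below 0. Of the 199 active members 36 fell. The converted percent over all genes also differed between the groups, at 21.8 and 24.2 in DMSO and 20.9 in either dTAGV-1 library. Its part in these calls was not tested. The share lower was 0.82% in genes up to 10 kb, 0.64% at 10 to 30 kb, 0.80% at 30 to 100 kb, 2.58% at 100 to 250 kb, 8.22% at 250 to 500 kb and 17.2% in members, with 12.1% in the other 99 genes over 500 kb. OPCML, from the same adhesion family as NTM, had 97.4 and 94.3 CPM in DMSO and 38.9 and 34.4 in dTAGV-1, a log2 change of -1.39 ± 0.16 (edgeR adjusted p = 7.4e-04). SLC24A3, a potassium-dependent sodium-calcium exchanger, had 199 and 190 against 78.6 and 74.8, a change of -1.34 ± 0.14 (edgeR adjusted p = 4.3e-04). FGF12, an intracellular factor that binds sodium channels, had 164 and 160 against 70.5 and 65.0, a change of -1.26 ± 0.11 (edgeR adjusted p = 1.5e-04). CA10, a carbonic anhydrase-related protein, had 15.0 and 17.0 against 4.24 and 1.79, a change of -2.44 ± 0.41 (edgeR adjusted p = 0.008). CLSTN2 had 116 and 110 against 47.2 and 44.8 (-1.30 ± 0.25). In none of these 5 did the groups overlap, and replicates lay close together except for CA10 in dTAGV-1, where it was low.

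The dystrophin complex list had the largest share of falls in neurons, 5 of 8, with a median of -0.65. Among them were SNTG1, a syntrophin, with 54.9 and 60.0 against 31.3 and 24.6 (-1.04 ± 0.16), the sarcoglycan gene SGCZ at -0.99 ± 0.15, DMD with 139 and 139 against 76.7 and 83.1 (-0.80 ± 0.17) and LAMA2 at -0.50 ± 0.11. Synaptic adhesion genes had 5 of 38 lower, with OPCML, CLSTN2, CNTNAP5 at -0.97, DSCAM at -0.90 and NEGR1 at -0.52, and a median of -0.37. Proteoglycan and matrix genes had 4 of 17 lower, with RELN at 71.8 and 70.2 against 32.3 and 29.7 (-1.20 ± 0.25) and THSD4 at 76.4 and 75.1 against 43.1 and 43.3 (-0.81 ± 0.11), and a median of -0.37. Transcription factors had 4 of 22 lower, signalling genes 3 of 22, trafficking genes 2 of 22, and polarity genes 0 of 18. In the polarity list 5 had an unadjusted edgeR p under 0.05 and the median was -0.22. CNTNAP2, the longest member, was at 0.00 (edgeR adjusted p = 1), and NTM at -0.40 (edgeR adjusted p = 0.35).

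The number of calls in neurons depended on single libraries and the fit. Against 45 members called with all libraries, 15 or 10 were called without DMSO replicate 1 or 2, and 20 or 6 without dTAGV-1 replicate 1 or 2. With the replicate number as a block 21 fell and 0 rose, and with libraries scaled on all reads 65 fell and 0 rose. Fibroblast marker sums ran from 553 to 572 in DMSO and from 532 to 545 in dTAGV-1, and neuron marker sums from 2719 to 2990 and from 2633 to 2866. Tested directly, the drug effect differed between neurons and cardiomyocytes in 0.595% of genes (0.252% lower, 0.343% higher) and in 10 members, lower in neurons for 9 and higher for 1. That count was 0 without DMSO replicate 2 or dTAGV-1 replicate 2 of the neurons, 1 without DMSO replicate 1 and 3 without dTAGV-1 replicate 1. It was 6 without DMSO replicate 1 and 39 without dTAGV-1 replicate 1 of the cardiomyocytes.

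Set side by side, the drug comparisons named partly different members. The 7 comparisons are the mean of 30 to 120 min and of 4 to 8 h from mitosis, the mean over the release series, the 120 min label in both series, cardiomyocytes and neurons. Over them, 131 of the 263 members were never called, 99 fell in at least 1, 44 rose in at least 1, and 11 did both. Of the falls 31 members fell in at least 2, 11 in at least 3 and 5 in at least 4: NTM and THSD4 in 5, and NCKAP5, PDE1C and SLC8A1 in 4. Of the rises KIAA1217, MAST4, MCTP1 and PTPRG rose in more than 1. Members lower in both RPE-1 at 4 to 8 h and neurons numbered 11, which is 23.4% of the first list and 24.4% of the second, among them CLSTN2, DMD, NCKAP5, RELN, SLC8A1 and THSD4. RPE-1 and cardiomyocytes shared 8 (17.0% and 21.1%), and neurons and cardiomyocytes 17 (37.8% and 44.7%). OPCML, GLIS3 and MIR100HG fell in cardiomyocytes and neurons but rose in RPE-1 at 4 to 8 h, by 0.73, 0.82 and 0.24. Relative to the gene's all reads, OPCML, GLIS3 and MIR100HG stood at -0.060, -0.029 and -0.10 in RPE-1 at 4 to 8 h. These differences between RPE-1 and the other cells were not tested, since label and time differ too.

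**Figure D5:**
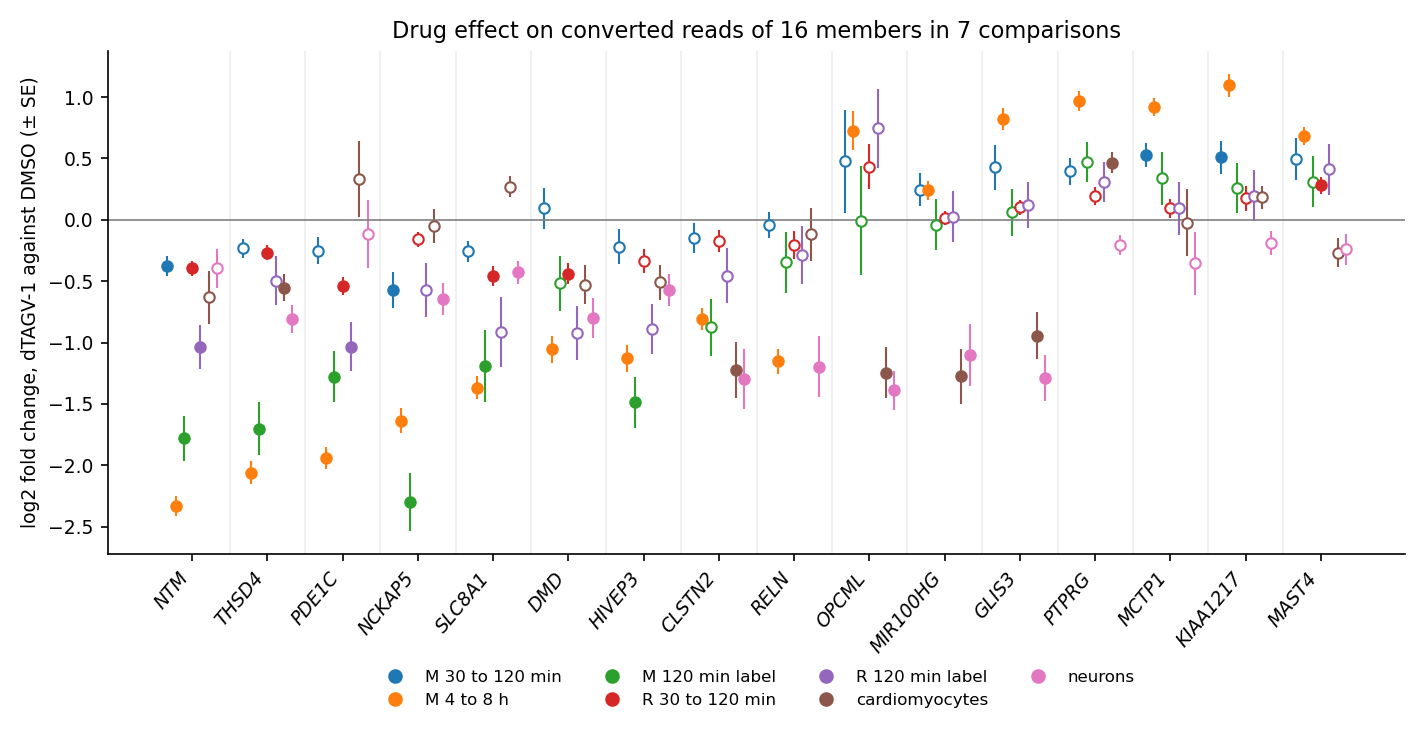
Log2 change in dTAGV-1 against DMSO (vertical axis) for 16 members in 7 comparisons, with bars for standard errors, filled points for values that passed the test and open points for those that did not. M stands for the mitosis series and R for the release series. NTM lies at -2.33 at 4 to 8 h and at -0.40 in the release series, and PTPRG at 0.97 at 4 to 8 h and at 0.47 in cardiomyocytes.

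At 4 to 8 h the shortest members tested, SPOCK3 (501.4 kb), PPFIA2 (501.6 kb) and DNAH14 (503.0 kb), stood at -0.40 ± 0.17, -0.63 ± 0.11 and -0.45 ± 0.09. DIAPH3 (498.4 kb), CACNA2D1 (497.4 kb) and RPS6KA2 (497.1 kb), just under the limit, stood at -0.13 ± 0.09, -0.68 ± 0.13 and -0.14 ± 0.07.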

How the data were processed

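RNA was labelled with 4sU and sequenced in 92 libraries of 32 groups. Per the submitters' processing notes, reads were handled with HISAT, Picard and HTSeq on hg38. Versions, options and counting strand are not given in the sources used here. Per the file headers, the deposited values are whole-number counts per gene of reads with a conversion and of all reads, not normalized. The deposited conversion rate, the fraction of covered T read as C, was only compared with the T counts beside it. Genes on the Y chromosome and around the X inactivation centre (298 of 49186) were left out.

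Converted counts were fitted over all genes with edgeR 4.0.16 (R 4.3.3, limma 3.58.1): TMM scaling, genes kept by filterByExpr with a minimum count of 10 and total of 15, quasi-likelihood F tests, and Benjamini-Hochberg adjustment with a call at 0.05. Each series was fitted as 1 model without a replicate term. SE is the log2 change over the root of F. Early and late times of the mitosis series and the long labels had fits of their own. CPM per library are TMM-scaled, except in the recovery percents and levels, which use plain library totals. Alternatives were DESeq2 1.42.0 (size factors and test), no filter, a block for the replicate number, counts of all reads, libraries scaled on all reads, each gene's all reads as offset, and each replicate or library left out. Libraries with a high floor were left out as an alternative chosen after seeing the data. On simulated data with 200 changed genes, 4-fold changes were recovered at 100% over 30 to 120 min and over 4 to 8 h from mitosis and over the release series, 87.7% with the long label from mitosis, and 86.2% in neurons. Changes of 2-fold were recovered at 88.9%, 87.5%, 77.6%, 41.5% and 62.5%. For the means over times the fold is that of the mean, with a median log2 size of 2.02, 1.97 and 2.04 at 4-fold. Recovery of changes that grow from time to time within a mean was not tested. Shares were compared with exact permutation tests (SciPy).

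Named members were, in each main comparison, the 8 called members with the largest fall and the 8 with the largest rise (mean log2 CPM of at least 1), the 8 most abundant members and the 3 longest, up to 3 called members of each list, and 3 genes on each side of the length limit. Other members named were chosen after their values were seen. The members and lists were chosen with earlier results of these data known. The 10 lists hold 176 members. All 263 members matched a RefSeq symbol, 8 of them under a newer name. Same-numbered libraries were taken as paired where, with 3 or more pairs, every pair's deviations from the group means correlated above 0.1. This held at 0 min of the mitosis series, for its 120 min label (0.152 to 0.581) and after 120 min of drug in the release series (0.238 to 0.421). Some members are not reported here by name.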

Additional observations from a re-analysis of the deposited data

Results flagged for a closer look

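Single libraries stood apart from the other 3 of their group in 4 of 54 tested sets of 4 values, near the 1 in 20 that chance gives. MIR100HG had 701 CPM in dTAGV-1 at 0 min of the mitosis series, replicate 3, above the others. NAV2 had 521 CPM in DMSO at 120 min, replicate 3, below the others. DLC1 had 455 CPM in dTAGV-1 at 60 min, replicate 3, below the others. RUNX1 had 1241 CPM in dTAGV-1 at 90 min, replicate 1, below the others.

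The drug effect differed between neurons and cardiomyocytes in the edgeR interaction test for 10 members. The differences, neurons minus cardiomyocytes on the log2 scale, were -1.49 for CPNE4, -1.37 for SORCS3, -1.22 for FGF12, -1.09 for PRKD1, -0.90 for NRG3, -0.89 for LAMA2, -0.88 for CHRM3, -0.70 for SLC8A1, -0.67 for PTPRG and 0.81 for INPP4B, with edgeR adjusted p from 0.0073 to 0.037. FGF12 had fallen in neurons, where PTPRG was not called, while PTPRG rose in cardiomyocytes. LAMA2 fell in neurons by 0.50 and rose in cardiomyocytes by 0.40.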

How the results depend on the processing

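Counts are of members called. DESeq2's test gave 7 over 30 to 120 min from mitosis (against 4), 12 with its long label (against 7) and 5 with the long label of the release series (against 2). Without a filter the counts were 15 over 30 to 120 min from mitosis, 51 at its single times (against 3), 20 and 9 with the long labels, 5 over the release series (against 8), 95 in cardiomyocytes, 88 in neurons and 172 for DMSO at 120 against 0 min. Under a replicate block they were 9, 5 at single times, 18 and 6 with the long labels, 11 at single times of the release series (against 7), 20 in cardiomyocytes and 21 in neurons; no other count moved by over 1.5 times. From counts of all reads they were 0 and 0 from mitosis, 37 at 4, 6 and 8 h (against 68), 22 for DMSO at 8 against 4 h, 1 and 0 with the long labels, 2 and 1 in the release series, 16 in cardiomyocytes and 7 in neurons. With libraries scaled on all reads they were 1 and 1 from mitosis, 103 for DMSO at 8 against 4 h, 0, 0 and 0 in the release series, 62 for DMSO at 120 against 0 min and 78 for the earlier times (against 198). Relative to each gene's all reads they were 0 and 0 from mitosis, 1 over 4 to 8 h (against 83) and 0 at its single times, 110 for DMSO at 8 against 4 h, 4 and 0 with the long labels, 0 and 0 in the release series, 12 in cardiomyocytes, 63 for DMSO at 120 against 0 min and 64 for the earlier times. Without the high-floor library 5 were called over the release series.

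On that last scale signs also turned for named members. At 4 to 8 h SYNE1 was at -0.018, SLC9A9 at -0.000672, KIAA1217 at -0.10, HS6ST3 at -0.25, GLIS3 at -0.029, OPCML at -0.060, PTPRM at -0.000640, MIR100HG at -0.10, MAST4 at -0.081 and HIVEP3 at 0.018. Over the release series NTM was at 0.033, MECOM at 0.017, PRKCA at 0.027 and THSD4 at 0.017 (0.0094 at 120 min). In cardiomyocytes LAMA2 was at -0.033. In DMSO at 120 against 0 min NAV2 was at 0.67, NLGN1 at 0.22, IMMP2L at 0.72, RAD51B at 0.52, UTRN at 0.50 and CREB5 at -0.25, and at 8 against 4 h CREB5 was at 0.50, GLIS3 at 0.51 and RUNX1 at 0.53.

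With replicates or libraries left out in turn, counts ran from 1 to 4 over 30 to 120 min from mitosis, 0 to 5 at single times, 69 to 86 over 4 to 8 h, 52 to 76 at its single times, 0 to 4 for 8 h minus 4 h, 23 to 47 for DMSO at 8 against 4 h, 4 to 6 and 0 to 0 with the long labels, 1 to 4 over the release series, 0 to 3 at its single times, 31 to 72 in cardiomyocytes, 6 to 62 in neurons, 0 to 39 for their difference, 60 to 138 for DMSO at 120 against 0 min, 109 to 174 for the earlier times and 0 to 0 for mitosis minus release. Over 135 named results, 1541 of 1988 alternative values kept direction and call, 422 lost the call and 25 turned. Silent members rest on few converted reads, as few as 0.419 M per library, so a missing call does not show that a gene did not change.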
